A study of Rattus norvegicus with 9 samples.

Results

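The genes described here are 10 markers used to tell cardiac macrophage populations apart, read in RNA-seq of the rat left ventricle. They were chosen by name, with earlier results of these data known. They were 3 markers of macrophages at large (Cd68, Csf1r and Adgre1) and 5 markers of resident macrophages (Lyve1, Folr2, Timd4, Mrc1 and Cd163). The other 2, Trem2 and Gpnmb, were markers of scar-associated macrophages. Of the 35843 genes in the table, 9 carried one of the 10 names, and Timd4 was not analysed here. The question was how resident and scar-associated markers stood against each other in the sham-operated heart, after infarction, and after infarction with an SGLT2 inhibitor.

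All 9 rats were adult male SD (Sprague-Dawley) rats, 3 per group, and hearts were taken at day 28. Group MI had its left anterior descending coronary artery ligated and received saline by daily gavage. Group MI + DAPA (1st d) had the same ligation and received dapagliflozin (DAPA), which blocks the sodium-glucose cotransporter SGLT2, at 1 mg/kg by daily gavage from the first day. Group Sham received saline after surgery without ligation. The study's methods name the left ventricle as the source of the RNA, and its RNA-seq text calls the tissue of both ligated groups infarct myocardium. For molecular work in general they state that the infarct border was mainly used and that scar was cut away along its edge, with the matching part of the heart taken in group Sham. Which of these the sequenced pieces were is not settled by the sources used here.

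Macrophages of the heart fall broadly into cells that settled there early in life and renew in place, and cells derived from circulating monocytes. Resident cells typically carry the hyaluronan receptor LYVE1, the folate receptor FOLR2 and the phosphatidylserine receptor TIMD4, together with the scavenger receptors MRC1 and CD163. Macrophages that gather in injured, fibrotic or lipid-laden tissue often carry TREM2, a lipid-sensing receptor, and GPNMB, a glycoprotein of lysosomes and the cell surface. Some of these genes are not limited to macrophages: Lyve1 and Mrc1 are also made by lymphatic endothelium, and Gpnmb by melanocytes.

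The upstream sequences of 5 markers are shown because these genes stood at the ends of the patterns described next: Gpnmb and Trem2 on the scar-associated side, and Mrc1, Lyve1 and Cd163 on the resident side. Each is the 250 bases before the annotated start in RefSeq on GRCr8, read 5′ to 3′ along the gene, with capitals marking matches to the motifs searched.
Gpnmb (chr4:79340878-79341127, plus strand): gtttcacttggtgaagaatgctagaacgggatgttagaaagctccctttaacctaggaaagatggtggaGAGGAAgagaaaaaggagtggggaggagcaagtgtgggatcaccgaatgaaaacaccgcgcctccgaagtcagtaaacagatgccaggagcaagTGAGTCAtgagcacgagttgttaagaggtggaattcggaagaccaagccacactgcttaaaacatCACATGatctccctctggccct
Trem2 (chr9:20151780-20152029, minus strand): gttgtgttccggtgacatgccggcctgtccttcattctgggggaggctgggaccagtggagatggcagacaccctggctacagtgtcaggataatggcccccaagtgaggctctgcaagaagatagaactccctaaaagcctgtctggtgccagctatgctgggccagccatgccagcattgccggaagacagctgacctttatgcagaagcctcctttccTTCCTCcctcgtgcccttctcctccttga
Mrc1 (chr17:82157475-82157724, plus strand): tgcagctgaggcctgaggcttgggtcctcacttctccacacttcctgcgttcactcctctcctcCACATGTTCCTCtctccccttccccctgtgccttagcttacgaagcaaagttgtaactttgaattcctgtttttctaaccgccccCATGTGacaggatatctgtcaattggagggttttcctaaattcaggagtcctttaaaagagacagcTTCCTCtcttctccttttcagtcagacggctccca
Lyve1 (chr1:174410978-174411227, minus strand): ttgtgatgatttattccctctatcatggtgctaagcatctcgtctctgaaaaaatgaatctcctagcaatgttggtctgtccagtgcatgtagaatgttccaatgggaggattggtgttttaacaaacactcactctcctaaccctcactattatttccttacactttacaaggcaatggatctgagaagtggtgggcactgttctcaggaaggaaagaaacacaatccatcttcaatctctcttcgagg
Cd163 (chr4:158770524-158770773, plus strand): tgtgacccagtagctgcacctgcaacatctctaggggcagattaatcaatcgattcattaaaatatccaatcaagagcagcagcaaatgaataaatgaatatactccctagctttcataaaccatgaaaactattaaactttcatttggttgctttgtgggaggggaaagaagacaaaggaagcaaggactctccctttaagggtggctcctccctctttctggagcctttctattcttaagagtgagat

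The motifs searched on both strands were GAGGAA (the core bound by PU.1, the transcription factor that myeloid cells depend on), CATGTG (an E-box of the MITF and TFE type), the related E-box CACGTG and TGAGTCA (the AP-1 site). GAGGAA occurred in 6 of the 10 members' windows and in 23.3% of all 33469 promoters of the same length. CATGTG occurred in 3 of the 10 and in 12.1% of all, TGAGTCA in 2 of the 10 and in 4.05% of all, and CACGTG in 0 of the 10 and in 5.59% of all. No 2 matches overlapped in the members' windows. The Gpnmb window held 1 match each to the PU.1, AP-1 and CATGTG letters, the last of them ending 17 bases before the start. Trem2 held 1 PU.1 match, and Mrc1 held 2 PU.1 matches and 2 of CATGTG. The windows of Lyve1, Folr2 and Cd163 held 0 matches to these letters. A match describes the sequence alone and is neither a binding site nor a cause of the levels.

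The values are FPKM, fragments scaled to transcript length and to a total per library, so levels can be compared between genes. That total was not all recovered reads, since rescaling to all of them moved the median of all genes. In MI vs. Sham the median went from −0.01 to 0.91, so comparisons between rats hold under the deposited scaling. Libraries held 13597239 to 17210909 recovered reads. Transcripts of the mitochondrial genome took 61.1 to 66.9% of them in group Sham, 7.07 to 19.1% in MI rats and 17.5 to 32.0% in DAPA rats. The members were therefore read at the lowest depth in group Sham, where 16 to 392 reads lay behind Gpnmb, 24 to 151 behind Adgre1 and 41 to 252 behind Cd68. In group MI, 487 to 726 reads lay behind Trem2, and each other member had at least 613 in every rat. Sham replicate 1 and MI replicate 2 stood apart from the other rats of their groups for several members, and results are given without them where that matters. Each of the 11 general myeloid genes with a row, among them Ptprc, Aif1 and C1qa, reached at least 1 FPKM in at least 1 rat of every group. Their detection does not by itself identify macrophages. In bulk tissue, fewer cells of a type and less RNA per cell cannot be told apart.

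**Figure D1:**
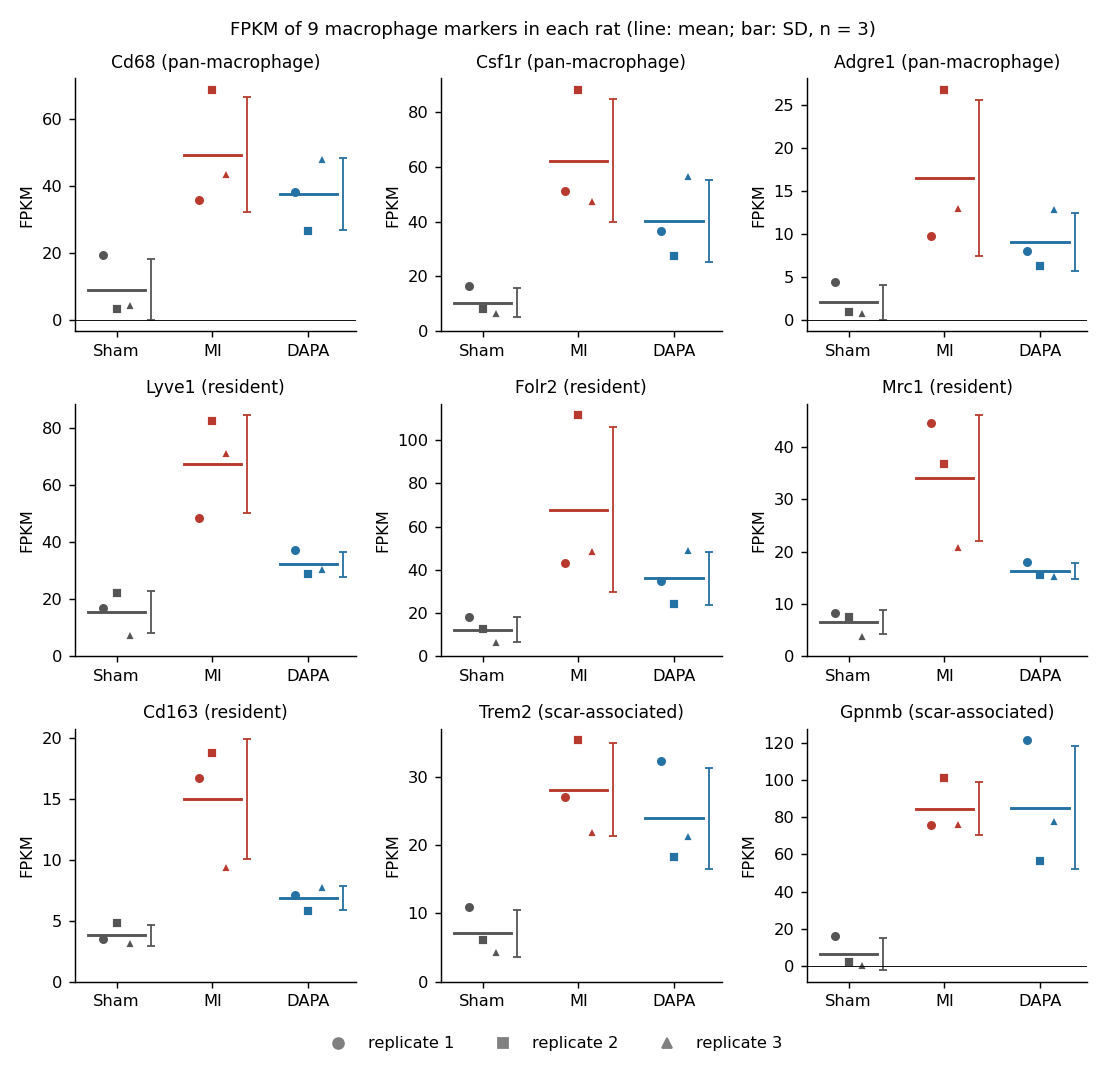
FPKM (vertical axis, linear) of the 9 members in each of 3 Sham, 3 MI and 3 MI + DAPA (1st d) rats, labelled Sham, MI and DAPA. Points are rats by replicate number, lines are group means and bars are the SD (n = 3). The DAPA points of Lyve1, Mrc1 and Cd163 lie below all MI points, and those of Trem2 and Gpnmb lie among them.

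Among Sham rats 2 of the resident markers, Lyve1 and Folr2, ranked first, while Mrc1 ranked sixth and Cd163 eighth of the 9. Lyve1 had the highest mean at 15.6 ± 7.45 FPKM (SD, n = 3), ahead of Folr2 at 12.4 ± 5.88 and Csf1r at 10.4 ± 5.25. Gpnmb, at 6.37 ± 8.58 FPKM, ranked seventh, above Cd163 at 3.81 ± 0.853 and Adgre1 at 2.05 ± 2.05. No neighbours in this order were separated in all rats, so the order itself is loose. In group MI, Gpnmb ranked first at 84.6 ± 14.4 FPKM, followed by Folr2 at 67.8 ± 38.0 and Lyve1 at 67.5 ± 17.3, and again no neighbours were separated. In group MI + DAPA (1st d), Gpnmb ranked first at 85.2 ± 33.2 FPKM and Csf1r second at 40.3 ± 15.0. There Trem2, at 24.0 ± 7.43 FPKM, lay above Mrc1, at 16.3 ± 1.53, in every rat, and Mrc1 lay above Adgre1, at 9.03 ± 3.39, in every rat. In the MI rats the order of Trem2 and Mrc1 was the other way round by their means, 28.2 ± 6.85 and 34.1 ± 12.1 FPKM, with values that overlapped.

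All 9 members rose in group MI vs. group Sham. The rule was the study's own, an unadjusted p under 0.05 with a change of more than 1 on the log2 scale, applied with limma to log2(FPKM + 1). Among all 13485 genes tested, 12.1% were higher by that rule. All 9 members also had an adjusted p under 0.05, between 0.00287 and 0.0120 (19.5% of all genes were higher by that criterion). In all 9 the lowest MI rat was above the highest Sham rat, which held for 27.1% of all genes. The median difference was 2.33 on the log2(FPKM + 1) scale over the 9 members, 2.16 over the 4 resident markers and −0.01 over all genes. That scale understates the change of genes with low values.

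Gpnmb differed most. It was at 16.2, 2.07 and 0.788 FPKM in the Sham rats and at 76.0, 101 and 76.7 FPKM in the MI rats. Sham replicate 1 was far above the other Sham rats, and still well under every MI rat. The difference was 4.22 (SE 0.75) on the log2 scale, and it was 5.18 without Sham replicate 1. Of the melanocyte markers, Mlana and Tyrp1 were listed at 0 in every rat, and the 3 with a row summed to at most 1.04 FPKM in any rat. Other cells as a source of Gpnmb were not tested, so its level cannot be assigned to macrophages alone.

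Trem2 was at 11, 6.06 and 4.32 FPKM in the Sham rats and at 27.1, 35.5 and 22.0 FPKM in the MI rats. Its difference of 1.90 (SE 0.32) was one of the smaller ones among the members, so the scar-associated pair did not move by a common factor. Every Sham rat had Trem2 transcripts, backed by 44 to 133 reads.

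The resident markers rose as well. Lyve1 was at 17.0, 22.2 and 7.51 FPKM in the Sham rats and at 48.6, 82.6 and 71.1 FPKM in the MI rats, a difference of 2.13 (SE 0.38). Folr2 was at 18.2, 12.5 and 6.45 FPKM in the Sham rats and at 43.1, 112 and 48.7 FPKM in the MI rats, a difference of 2.33 (SE 0.45). Folr2 in MI replicate 2 was far above the other MI rats.

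Mrc1, the mannose receptor, was at 8.25, 7.57 and 3.95 FPKM in the Sham rats and at 44.6, 36.8 and 20.9 FPKM in the MI rats, a difference of 2.20 (SE 0.34). Cd163, the receptor that takes up haemoglobin bound to haptoglobin and the antigen of the rat antibody ED2, was at 3.48, 4.78 and 3.17 FPKM in the Sham rats and at 16.7, 18.8 and 9.43 FPKM in the MI rats. Its difference of 1.70 (SE 0.27) was the smallest of the 9.

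The 3 markers of macrophages at large gave differences between 2.51 and 2.65. Cd68, a lysosomal glycoprotein and the antigen of the rat antibody ED1, was at 19.4, 3.22 and 4.39 FPKM in the Sham rats and at 35.7, 68.7 and 43.6 FPKM in the MI rats. Csf1r, the receptor for the macrophage growth factors CSF1 and IL-34, was at 16.4, 8.27 and 6.56 FPKM in the Sham rats and at 51.1, 88.0 and 47.5 FPKM in the MI rats. Adgre1, which encodes the F4/80 antigen, was at 4.41, 0.894 and 0.834 FPKM in the Sham rats and at 9.71, 26.7 and 12.9 FPKM in the MI rats. Sham replicate 1 was highest and MI replicate 2 highest for each of the 3. Without Sham replicate 1 the difference of Cd68 was 3.35 in place of 2.65.

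Markers of other cells moved in the same comparison. The 7 fibroblast markers summed to 430 to 704 FPKM in group Sham and 3652 to 7200 FPKM in group MI, and all 7 rose. The 6 lymphatic endothelial markers summed to 122 to 268 FPKM in group Sham and 443 to 1294 FPKM in group MI, and 4 of the 6 rose. The 5 blood endothelial markers with a row went the other way, from 815 to 898 FPKM in group Sham to 209 to 278 FPKM in group MI, and 4 of the 5 fell. Their part in the result was not tested. Because Lyve1 and Mrc1 are shared with lymphatic endothelium, their levels cannot be assigned to macrophages alone.

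With DAPA from the first day, all 9 members had a negative difference from group MI, a sign shared by 52.8% of all 13251 genes tested. Lyve1 alone fell by the study's rule (1.11% of all genes were lower by it). Lyve1, Mrc1 and Cd163 had an unadjusted limma p under 0.05 (3.9% of all genes) and were the members whose DAPA rats all lay below all MI rats (7.16% of all genes). No member passed an adjusted p of 0.05, nor did any other gene, the smallest adjusted limma p being 0.558 (517 genes were lower at an unadjusted p under 0.05). The median difference was −0.73 over the 9 members and −0.97 over the 4 resident markers, beside −0.02 over all genes. In the plot of differences by comparison, Trem2 and Gpnmb lie nearest to 0 in this comparison.

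**Figure D2:**
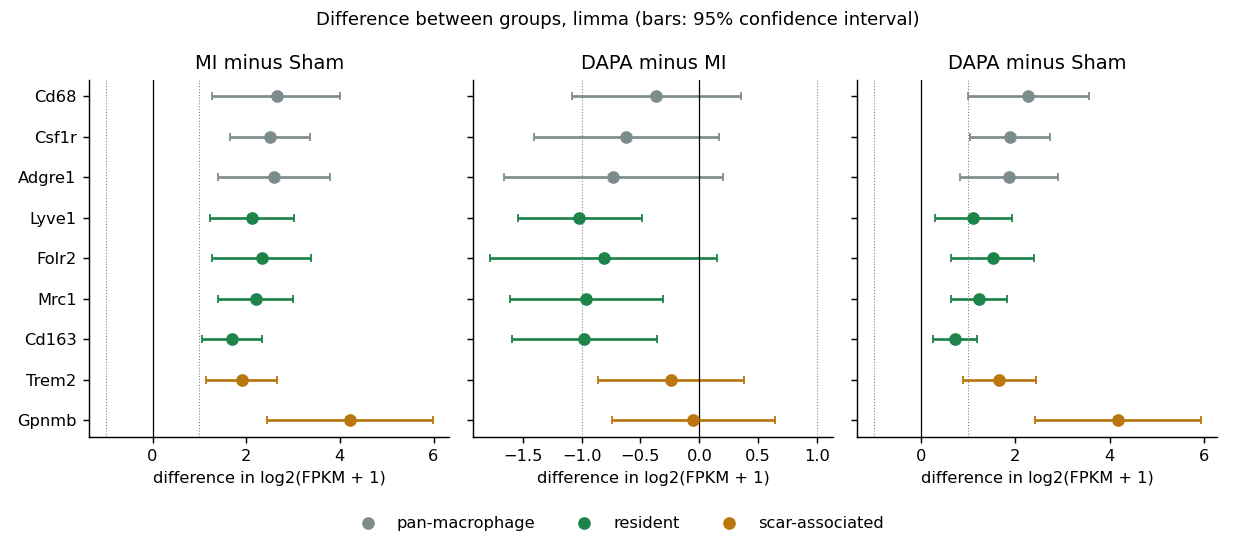
Difference in log2(FPKM + 1) between groups (horizontal axis) for the 9 members, in MI minus Sham, DAPA minus MI and DAPA minus Sham; points are limma estimates, bars their 95% confidence intervals and dotted lines a change of 1. All 9 intervals lie above 0 in both comparisons with Sham, while in DAPA minus MI only those of Lyve1, Mrc1 and Cd163 lie wholly below 0.

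Lyve1 was at 48.6, 82.6 and 71.1 FPKM in the MI rats and at 37.2, 28.9 and 30.6 FPKM in the DAPA rats. The DAPA rats lay close together, and the highest of them was under the lowest MI rat. The difference was −1.02 (SE 0.22) with an unadjusted limma p of 0.00270 and an adjusted p of 0.558. Its size sat at the edge of the rule: without MI replicate 2 it was −0.86, without MI replicate 3 it was −0.96, without DAPA replicate 2 it was −0.94 and without DAPA replicate 3 it was −0.98, each short of a change of 1.

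Cd163 was at 16.7, 18.8 and 9.43 FPKM in the MI rats and at 7.08, 5.79 and 7.74 FPKM in the DAPA rats. MI replicate 3 was near the DAPA rats but above them. The difference was −0.98 (SE 0.26), with an unadjusted limma p of 0.00722 and an adjusted p of 0.558.

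Mrc1 was at 44.6, 36.8 and 20.9 FPKM in the MI rats and at 18.0, 15.5 and 15.3 FPKM in the DAPA rats. Again MI replicate 3 was the lowest MI rat and the DAPA rats were tightly grouped. The difference was −0.96 (SE 0.27), with an unadjusted limma p of 0.00995 and an adjusted p of 0.558.

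Folr2, the remaining resident marker, was at 43.1, 112 and 48.7 FPKM in the MI rats and at 35, 24.4 and 48.9 FPKM in the DAPA rats. DAPA replicate 3 reached the level of MI replicate 3, and the groups overlapped. The difference was −0.81 (SE 0.41, 95% confidence interval −1.78 to 0.15), and it was −0.39 without MI replicate 2.

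Trem2 was at 27.1, 35.5 and 22.0 FPKM in the MI rats and at 32.4, 18.2 and 21.3 FPKM in the DAPA rats, which interleaved. The difference was −0.24 (SE 0.26), with an interval from −0.86 to 0.38. Gpnmb was at 76.0, 101 and 76.7 FPKM in the MI rats and at 122, 56.5 and 77.8 FPKM in the DAPA rats. DAPA replicate 1 was the highest and DAPA replicate 2 the lowest of the 6. The difference of Gpnmb was −0.05 (SE 0.29), with an interval from −0.74 to 0.64, so changes of that size in either direction lay within the error of these rats. Its sign depended on single rats, at 0.09 without MI replicate 2 and 0.21 without DAPA replicate 2.

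The markers of macrophages at large lay between the resident and the scar-associated markers. In the DAPA rats Csf1r was at 36.7, 27.5 and 56.8 FPKM, Cd68 at 38.1, 26.6 and 48.1 FPKM and Adgre1 at 7.97, 6.29 and 12.8 FPKM. Each overlapped the MI rats, and DAPA replicate 3 was the highest and DAPA replicate 2 the lowest of the DAPA rats. The differences from group MI were −0.62 (SE 0.33) for Csf1r, −0.37 (SE 0.30) for Cd68 and −0.73 (SE 0.39) for Adgre1. Without MI replicate 2 they were −0.34, −0.11 and −0.34, and without DAPA replicate 2 −0.38, −0.15 and −0.53. Adgre1 passed the rule without MI replicate 1, at −1.02, and Cd68 was at −0.57 there and at −0.56 without DAPA replicate 3.

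The number of members called moved with single rats. It was 0 without MI replicate 2 and 0 without DAPA replicate 2, and 3 without MI replicate 1 and 3 without DAPA replicate 1. In these fits, in that order, 2.17%, 2.78%, 3.82% and 2.43% of all genes were lower at an unadjusted limma p under 0.05. Those shares carry no fold threshold. Shares by the full rule with 1 rat left out are not given, here or for the gene lists. MI replicate 2 also carried the most lymphoid transcripts: Jchain, the joining chain of secreted antibodies, was at 2881 FPKM there, at 23.9 and 503 FPKM in the other MI rats, and at 5.05 to 8.87 FPKM in the DAPA rats. The 7 fibroblast markers summed to 2175 to 3980 FPKM in group MI + DAPA (1st d) against 3652 to 7200 FPKM in group MI, and the lymphatic endothelial markers to 333 to 638 FPKM against 443 to 1294 FPKM. All 6 lymphatic endothelial markers had a negative difference (52.8% of all genes did). By the rule 1 of them fell (1.11% of all genes did), Mmrn1 with a difference of −1.03 (SE 0.34). That count was 4 without MI replicate 1, 2 without DAPA replicate 1, and 0 without MI replicate 2, MI replicate 3 or DAPA replicate 2. The 8 cardiomyocyte markers had a median difference of 1.35. The part of these cell types in the differences of Lyve1, Mrc1 and Cd163 was not tested.

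Against group Sham, the DAPA rats had higher levels of every member. By the study's rule 8 of 9 rose (9.54% of all 13359 genes tested were higher), 9 of 9 had an adjusted limma p under 0.05 (14.5% of all genes) and in 9 of 9 the groups did not overlap (23.2% of all genes). The differences ran from 4.17 (SE 0.76) for Gpnmb, 2.28 (SE 0.56) for Cd68, 1.89 (SE 0.36) for Csf1r, 1.86 (SE 0.45) for Adgre1 and 1.66 (SE 0.33) for Trem2 down to the resident markers, with 1.52 (SE 0.38) for Folr2, 1.23 (SE 0.25) for Mrc1, 1.11 (SE 0.35) for Lyve1 and 0.72 (SE 0.20) for Cd163. Cd163, at 3.17 to 4.78 FPKM in group Sham and 5.79 to 7.74 FPKM in group MI + DAPA (1st d), was the member short of a change of 1. Without Sham replicate 3, Lyve1 at 0.69 and Mrc1 at 0.95 fell short of it too. In the same comparison 7 of 7 fibroblast markers rose, with a median of 2.83, 4 of 5 lymphatic endothelial markers tested rose, with a median of 1.32, and 3 of 5 blood endothelial markers fell, with a median of −1.11. Their part in the result was not tested. This comparison shares its Sham rats with MI vs. Sham and its DAPA rats with DAPA vs. MI, so its values are not further evidence for either.

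The contrast between the marker classes was taken within each rat, as the mean log2(FPKM + 1) of Trem2 and Gpnmb minus that of Lyve1, Folr2, Mrc1 and Cd163. It was 0.39, −1.26 and −0.96 in the Sham rats, 0.35, 0.25 and 0.49 in the MI rats, and 1.58, 0.96 and 0.94 in the DAPA rats. Every DAPA rat lay above every MI rat, whereas Sham replicate 1 lay among the MI rats. Group means were −0.61 ± 0.88, 0.36 ± 0.12 and 1.16 ± 0.36 (SD, n = 3 each). The difference between DAPA and MI rats was 0.80. With Trem2 alone in place of the pair it was 0.70, and with Gpnmb alone 0.90. On the log2(FPKM + 1) scale it lay on the resident side. The resident mean was 5.26 ± 0.40 in the MI rats and 4.32 ± 0.20 in the DAPA rats, and the scar-associated mean was 5.62 ± 0.27 and 5.48 ± 0.48. Set against macrophage markers at large, as described below, the resident markers differed by −0.44 to −0.24, Trem2 by 0.33 and Gpnmb by 0.53. The side to which the difference is assigned therefore depends on the reference. The difference between MI and Sham rats, 0.97, rested on Gpnmb, being 2.13 with Gpnmb alone and −0.18 with Trem2 alone. No test was made of this contrast, since its members were chosen with earlier results of these data known.

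**Figure D3:**
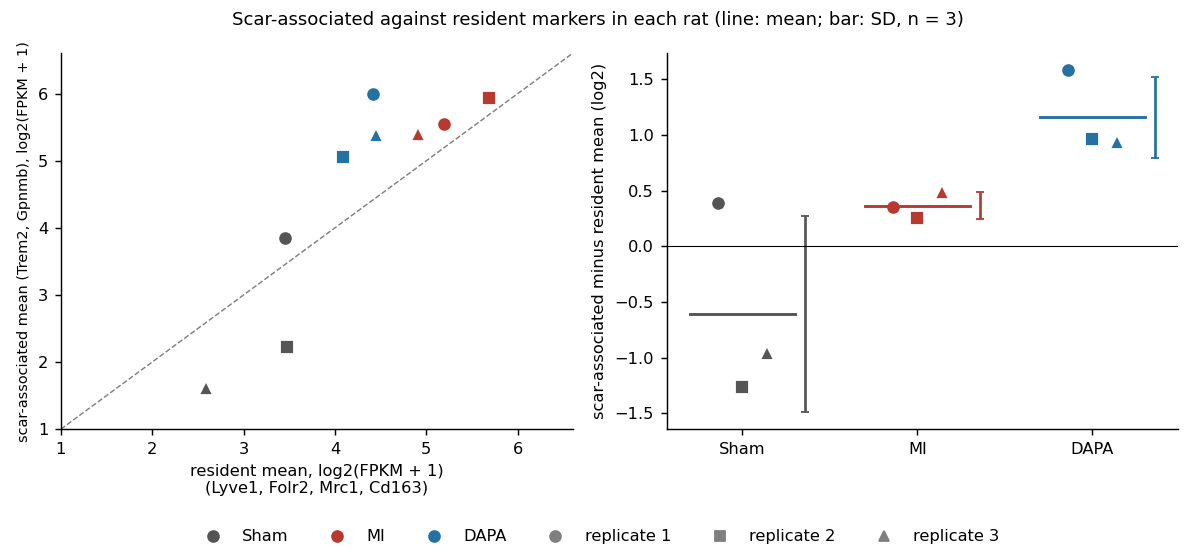
Left, mean log2(FPKM + 1) of Trem2 and Gpnmb (vertical) against that of Lyve1, Folr2, Mrc1 and Cd163 (horizontal) in each rat, with the line of equality dashed; right, the difference of these means by group, with group means (lines) and SD (bars, n = 3). DAPA rats lie at 0.94 to 1.58, above the MI rats at 0.25 to 0.49, and Sham rats spread from −1.26 to 0.39.

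Each scar-associated marker was also divided by each resident marker in the same rat, which gave 8 ratios of FPKM. The DAPA rats lay above all MI rats in 5 of the 8 and overlapped them in 3. Gpnmb per Lyve1 was 0.0932 to 0.953 in the Sham rats, 1.08 to 1.56 in the MI rats and 1.95 to 3.27 in the DAPA rats. Gpnmb per Cd163 was 4.54 to 8.13 in the MI rats and 9.76 to 17.2 in the DAPA rats. Both ratios were highest in the DAPA rats. Gpnmb itself differed from the MI rats by −0.05 (SE 0.29), while Lyve1 and Cd163 were lower. Trem2 per Lyve1 was 0.273 to 0.644 in the Sham rats, 0.309 to 0.557 in the MI rats and 0.631 to 0.870 in the DAPA rats. In the same order, Trem2 per Cd163 was 1.27 to 3.16, 1.62 to 2.33 and 2.75 to 4.57. Trem2 per Mrc1 was 0.8 to 1.33, 0.607 to 1.05 and 1.18 to 1.80. In each of these Trem2 ratios the Sham rats overlapped the DAPA rats. The ratios that overlapped were both of those to Folr2 and Gpnmb per Mrc1. Trem2 per Folr2 was 0.319 to 0.628 in the MI rats and 0.435 to 0.926 in the DAPA rats. Gpnmb per Folr2 was 0.907 to 1.76 and 1.59 to 3.48, and Gpnmb per Mrc1 was 1.70 to 3.67 and 3.65 to 6.74. The ratios share their genes and are not 8 separate results. All 5 divide by Lyve1, Mrc1 or Cd163, whose own levels already separated the DAPA rats from the MI rats. The share of such separations among ratios of other genes was not computed.

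Each resident and scar-associated marker was also set against the mean of Cd68, Csf1r and Adgre1 of the same rat, which asks whether it moved beyond macrophage markers at large. In MI vs. Sham, 1 of the 6 was higher by the study's rule, Gpnmb with a difference of 1.64 (SE 0.72), beside 0.267% of all genes. The mean of Cd68, Csf1r and Adgre1 rose from 2.59 in Sham to 5.18 in MI rats, which lowers the relative difference of every gene. That share is therefore no background for macrophage genes. Gpnmb relative to those markers was at 0.47, −0.45 and −1.24 in the Sham rats and at 1.49, 0.88 and 1.32 in the MI rats, with no overlap, and a two-sided exact permutation test gave 0.1, the smallest p that 3 rats against 3 allow. The call was lost without Sham replicate 2, Sham replicate 3, MI replicate 1 or MI replicate 3, with differences of 1.61, 1.22, 1.5 and 1.59. The other 5 had differences from −0.89 for Cd163 to −0.25 for Folr2, none past the rule. Without Sham replicate 1, Cd163 was lower by the rule too, at −1.45, and Gpnmb was at 2.07. The spread of the 3 reference markers entered every gene in fits of this kind, and limma draws each gene's variance towards that of the other genes. The standard errors were therefore nearly equal. They, and the intervals and p-values built on them, do not measure each member's own spread between rats.

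In DAPA vs. MI, 0 of the 6 passed the rule relative to macrophage markers at large (0.506% of all genes were lower), and 0 of the 6 had an unadjusted limma p under 0.05. The mean subtracted was 5.18 in the MI rats and 4.6 in the DAPA rats, which raises every relative difference. That share is no background for macrophage genes either. The resident markers had differences of −0.44 (SE 0.54) for Lyve1, −0.41 (SE 0.50) for Cd163, −0.39 (SE 0.52) for Mrc1 and −0.24 (SE 0.54) for Folr2. The scar-associated markers had differences of 0.33 (SE 0.52) for Trem2 and 0.53 (SE 0.56) for Gpnmb. The 95% confidence interval for Lyve1 ran from −1.5 to 0.62 and that for Gpnmb from −0.58 to 1.63, so neither an unequal nor an equal change was shown. Folr2 was the exception in its spread: at 0.60, 0.50 and 0.56 the DAPA rats lay below the MI rats at 0.69, 1.02 and 0.67, and the exact permutation test gave its smallest p of 0.1.

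**Figure D4:**
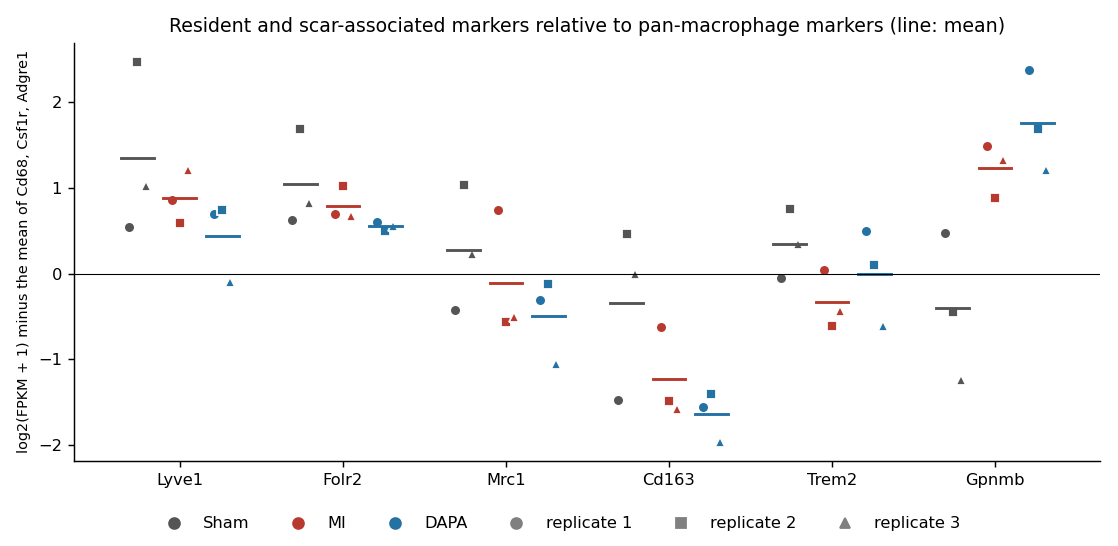
Level of the 4 resident and 2 scar-associated markers relative to macrophage markers at large, as log2(FPKM + 1) minus the rat's mean of Cd68, Csf1r and Adgre1 (vertical axis), by rat and group with group means as lines. Gpnmb lies at −1.24 to 0.47 in Sham, 0.88 to 1.49 in MI and 1.21 to 2.37 in DAPA rats; the groups of Lyve1, Mrc1, Cd163 and Trem2 overlap.

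Other genes of the same populations were read from lists. Of 15 other genes of resident macrophages, 13 passed the filter on low values, and Slc40a1 was listed at 0 in every rat. In MI vs. Sham, 9 of the 13 rose and 0 fell, with a median difference of 1.83. Maf, a transcription factor of resident macrophages, was at 1.34 to 2.75 FPKM in group Sham and 23.1 to 41.2 FPKM in group MI, a difference of 3.35 (SE 0.27). Clec10a, a lectin, differed by 1.83 (SE 0.20). In the same comparison 7 of 7 fibroblast markers rose, with a median of 3.58. The part of other cell types in the differences of this list was not tested.

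Between DAPA and MI rats, 12 of these 13 had a negative difference, a sign shared by 52.8% of all genes. On the lower side, 8 had an unadjusted limma p under 0.05, against 3.9% of all genes. The list was chosen with earlier results of these data known, so these shares are not a fair background for it. By the study's rule 2 fell, Maf with −1.10 (SE 0.39) and Clec10a with −1.06 (SE 0.24), both with an adjusted p of 0.558. The count of 2 was 0 without MI replicate 2, 0 without DAPA replicate 2, 1 without DAPA replicate 1 and 3 without DAPA replicate 3. Clec10a was at 80.6, 106 and 64.1 FPKM in the MI rats and at 40.1, 30.4 and 47.9 FPKM in the DAPA rats, which did not overlap. Gas6, a bridging ligand for the uptake of dying cells, had a difference of −0.72 (SE 0.21) and fell short of a change of 1. The median over the 13 was −0.61. The count of 8 was 4 without MI replicate 2, 3 without DAPA replicate 2 and 5 without DAPA replicate 1, where 2.17%, 2.78% and 2.43% of all genes passed.

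Of 16 other genes of scar-associated and lipid-handling macrophages, 15 passed the filter. In MI vs. Sham, 6 rose and 2 fell, and the median difference was 1.26. Ctsd, a lysosomal protease, differed by 1.36 (SE 0.19) and Plin2, a coat protein of lipid droplets, by 1.26 (SE 0.17). Fabp5, a fatty acid-binding protein that endothelium also makes, fell by 2.59 on the log2 scale (SE 0.33). Between DAPA and MI rats, 0 of the 15 had an unadjusted limma p under 0.05, 8 of the 15 were positive and the median was 0.03. The differences ran from −0.92 to 1.3, so that median does not describe each gene. Since genes such as Fabp5 are also made by other cells, it cannot be assigned to macrophages alone. Mmp12, a macrophage elastase, was at 7.0, 0.917 and 2.48 FPKM in the MI rats and at 5.79, 14.9 and 6.36 FPKM in the DAPA rats, a difference of 1.3 (SE 0.56) with overlap. Cst7, an inhibitor of cysteine proteases, went the other way at −0.88 (SE 0.38), also with overlap. The count of 0 on the lower side was 3 without MI replicate 1, 1 without DAPA replicate 1 and 2 without DAPA replicate 3.

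**Figure D5:**
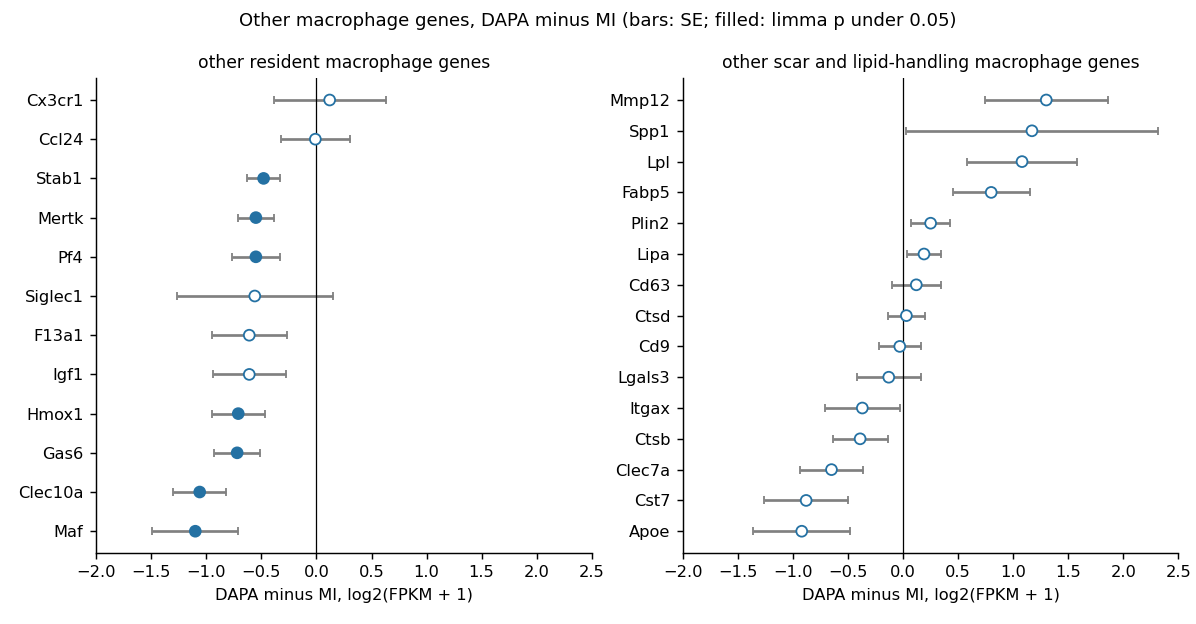
Difference between DAPA and MI rats in log2(FPKM + 1) (horizontal axis) for 12 of the 13 other resident macrophage genes tested (left) and 15 other scar and lipid-handling macrophage genes (right); bars are the SE and filled points have an unadjusted limma p under 0.05. Filled points number 7 on the left, all below 0, and 0 on the right, where the median is 0.03.

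Ligands, adaptors and downstream factors of CSF1R and TREM2 were read next. In MI vs. Sham, 7 of 16 rose, with a median of 1.05. Il34, the second ligand of CSF1R, was at 5.28 to 5.62 FPKM in group Sham and 16.3 to 19.2 FPKM in group MI, a difference of 1.55 (SE 0.14). Spi1, which encodes PU.1, differed by 2.19 (SE 0.43) and the myeloid factor Irf8 by 1.45 (SE 0.26). In DAPA vs. MI the median over 16 was −0.41 and 1 fell, Hcst, which encodes the adaptor DAP10. Hcst was at 9.05, 49.5 and 13.6 FPKM in the MI rats and at 6.30, 4.56 and 7.19 FPKM in the DAPA rats, a difference of −1.49 (SE 0.56) with its high value in MI replicate 2. Il34 had a difference of −0.29 (SE 0.12) without overlap, and Inpp5d, the phosphatase SHIP1, one of −0.48 (SE 0.19).

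All 11 general myeloid genes tested rose in MI vs. Sham, with a median of 2.37, among them the complement genes C1qb with 3.22 (SE 0.33) and C1qc with 2.65 (SE 0.30). With DAPA all 11 were negative, beside 52.8% of all genes. Of the 11, 0 fell by the rule, beside 1.11% of all genes. The median was −0.82, beside −0.61 over the other resident genes. The count of 0 was 4 without DAPA replicate 3, 3 without MI replicate 1, 2 without MI replicate 3 and 1 without DAPA replicate 1, and the median was −0.46 without MI replicate 2. Laptm5, a lysosomal membrane protein of blood cells, was the 1 gene with an unadjusted limma p under 0.05, at −0.90 (SE 0.31). That count of 1 was 7 without DAPA replicate 3, 3 without MI replicate 1, 2 without MI replicate 3 and 0 without DAPA replicate 2. In those fits, in that order, 6.23%, 3.82%, 4.49% and 2.78% of all genes passed on the lower side. Of the monocyte and inflammatory genes, 3 of 7 tested rose in MI vs. Sham, Lyz2 with 3.58 (SE 0.55), Plac8 with 2.88 (SE 0.62) and Cd14 with 2.26 (SE 0.40). With DAPA 1 of 8 fell, Plac8 with −1.86 (SE 0.66), although its groups overlapped.

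The genes outside the members whose levels followed the markers most closely over the 9 rats were picked by Pearson's r of log2(FPKM + 1) among 13078 genes. Among the 3 nearest to each were Vps35 and Tmed9 for Trem2, Epn1 and Tmem9b for Gpnmb, Nln, Tmem37 and Tnfaip8l2 for Folr2, and Smpd3, Lysmd1 and Dnajb9 for Lyve1, with r from 0.972 to 0.998. The rats fall into sham-operated and infarcted hearts, and the part of that split and of library depth in these likenesses was not tested.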

How the data were processed

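RNA from the left ventricles of 9 rats was sequenced by the authors as poly-A libraries, and FPKM values were deposited, 1 column per rat, for 35843 genes. The submitters' processing notes name HISAT2 2.0.5, StringTie 1.3.3b, featureCounts 1.5.0-p3 and DESeq2, and the genome build is not given in the sources used here. Columns not used numbered 0. Sample titles name a pair of labels per rat (such as Sham1-1 and Sham1-2) whose meaning is not stated. Each rat was counted as 1 replicate, and nothing in the labels says more of the replicates than that they are biological. The p-values from limma measure the spread between these rats, with each gene's variance drawn towards that of the other genes.

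The deposited FPKM values of a gene are whole multiples of the value of 1 read. For 18896 of 18896 genes with a value in 4 or more libraries this gave whole reads within 0.02 reads, adding up to 13597239 to 17210909 reads per rat. A floor of 3 reads was from 1.74e-05 to 2.21e-05% of a library, counting error only. They served for depth, not for a count test.

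The authors called genes with DESeq2 where p was under 0.05 and the log2 fold change passed 1 in either direction. FPKM are not counts, so limma 3.58.1 in R 4.3.3 (trend in the empirical Bayes step) was run on log2(FPKM + 1), two-sided, fitting only the 6 rats of a comparison and genes at 1 FPKM or more in at least 3 of the 6 rats, with the same thresholds and with Benjamini-Hochberg adjusted p over all genes tested. All 9 members with a row passed the filter in each comparison. Where a gene name repeats, the row with the highest mean was used. Python 3.11.15 with numpy 2.4.6 and pandas 2.3.3 served for the rest. The fit was tested on simulated data.

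Members and gene lists were chosen with earlier results of these data known. Named genes were all members, from each list up to 3 genes with the smallest p in MI vs. Sham and up to 2 in DAPA vs. MI, and the 3 genes most like Trem2, Gpnmb, Folr2 and Lyve1; genes named as examples of a marker list (Ptprc, Aif1, C1qa, Mlana, Tyrp1 and Slc40a1) were named for their role or a value of 0, after their values were seen. Some genes that this rule names are not reported here. Promoters came from RefSeq (GRCr8), which held all 10 members. Alternatives were a pseudocount of 0.1, no filter, all 9 rats in 1 fit, the replicate block, 3 rescalings, other call rules and each rat left out; scaling to all recovered reads, the call at p alone, the exact tests and the single-gene contrasts were added after seeing the data.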

Additional observations from a re-analysis of the deposited data

How the results depend on the processing

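In MI vs. Sham the number of members called was 9 under every alternative run, and in DAPA vs. Sham it was 6 to 9. In DAPA vs. MI it was 1 as reported, 0 at an adjusted p under 0.05, 3 at an unadjusted p under 0.05 with no fold threshold, 2 with a pseudocount of 0.1, 3 with equal sums outside the mitochondrial genome, 3 with scaling to all recovered reads and 0 to 3 with 1 rat left out; Lyve1, Mrc1 and Cd163 lay at −0.96 to −1.02 against a threshold of −1, and the cause of these moves was not tested. Scaling to all recovered reads moved the median of all genes to 0.91 in MI vs. Sham, −0.21 in DAPA vs. MI and 0.73 in DAPA vs. Sham. Relative to macrophage markers at large, 1 member was called in MI vs. Sham, 0 with the replicate block and 0 to 2 with 1 rat left out. With 1 rat left out the sign turned for Gpnmb in DAPA vs. MI (−0.34 to 0.21), and relative to those markers for Lyve1 (−0.85 to 0.11) and Folr2 (−0.46 to 0.07) in MI vs. Sham and Mrc1 (−0.61 to 0.03) in DAPA vs. MI. The contrast of scar-associated and resident markers in MI vs. Sham was −0.18 with Trem2 alone and 2.13 with Gpnmb alone. Leaving Timd4 out of the resident mean was not run as a separate setting, because the reported mean holds no Timd4.

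The replicate numbers did not pair the rats: deviations of rats with the same number correlated at 0.0207 on average in MI vs. Sham, −0.184 in DAPA vs. MI and 0.102 in DAPA vs. Sham. With the replicate block, 9, 1 and 8 members were called in the comparisons MI vs. Sham, DAPA vs. MI and DAPA vs. Sham, as without it, and 71 higher and 146 lower genes were called in DAPA vs. MI in place of 126 and 147. Of the members, Gpnmb, Cd68 and Adgre1 in group Sham rest on the fewest reads.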

Other observations

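Markers of other immune cells were low or uneven. Of 5 dendritic cell markers, 4 passed the filter in MI vs. Sham. Flt3 and Ccr7 rose, by 1.48 (SE 0.29) and 1.11 (SE 0.32) on the log2 scale, and Zbtb46 fell by 1.13 (SE 0.23). Clec9a, a marker of cross-presenting dendritic cells, had a difference of −0.82 (SE 0.15) with an adjusted limma p of 0.00700 and no overlap, short of a change of 1. In DAPA vs. MI, Ccr7, the receptor that guides mature dendritic cells and lymphocytes to lymph nodes, was at 2.21, 5.88 and 3.11 FPKM in the MI rats and at 0.638, 0.917 and 0.775 FPKM in the DAPA rats, a difference of −1.34 (SE 0.29) with an adjusted limma p of 0.558. The 5 T cell markers summed to 7.62 to 12.7 FPKM in group Sham, 9.57 to 91.2 FPKM in group MI and 6.34 to 8.44 FPKM in group MI + DAPA (1st d). The 4 B and plasma cell markers with a row summed to 1.93 to 4.40, 24.6 to 2936 and 6.24 to 9.88 FPKM. The 5 neutrophil markers summed to 13.4 to 46.8, 17.4 to 68.5 and 12.0 to 173 FPKM, and 0 of the 3 tested were called in DAPA vs. MI.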
